A study of Musca domestica with 6 samples.

Results

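Immune recognition, signalling and haemocyte genes of the housefly, Musca domestica, were described in whole larvae after RNA interference against MdCht9, a chitinase gene. The genes were the protein-coding rows of the deposited table whose protein description held one of 18 fixed terms, such as peptidoglycan recognition, toll-like, spaetzle, hemocytin or croquemort. The rule took 47 of 14227 rows and used no measured value. The dsMdCht9 group held 3 samples of larvae injected in instar 2 with double-stranded RNA against MdCht9. The dsGFP group held 3 samples of instar 2 larvae injected with double-stranded RNA against GFP, a jellyfish gene used as a control sequence. The sample labels give the whole body for both groups, collected 24 h after injection, while a phrase of the series' design text speaks of retina; the sample labels were followed. No uninjected larvae were among the samples, and the strain is not given in the sources used here. Nothing in the labels shows that replicates were separate pools of animals, so p-values cover only the spread among these libraries, part of which may be technical.

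Insects recognise microbes without antibodies. Peptidoglycan recognition proteins (PGRPs) bind the peptidoglycan of bacterial cell walls, and Gram-negative bacteria-binding proteins (GNBPs) act with them or bind fungal glucans. In Drosophila, recognition starts a protease cascade that cleaves the ligand spaetzle, which activates the receptor Toll, while PGRP-LC and PGRP-LE feed the Imd pathway. Both pathways switch on antimicrobial peptide genes, mainly in the fat body, an organ with liver-like tasks. Haemocytes, the blood cells, take up dead cells and microbes and help to form clots and melanin.

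The 47 genes held 20 PGRPs, 3 GNBPs, 1 spaetzle, 9 Toll and toll-like receptors, 9 croquemort genes, 1 hemocytin, 2 peroxidasins and 2 tolloid genes. The tolloid genes were taken only because the word tolloid contains toll: they are metalloproteases known for processing growth factors, not Toll receptors. Of the 9 Toll and toll-like genes, 4 had the intracellular TIR domain of Toll receptors as the Pfam match given. The other 5 had a leucine-rich repeat there, which does not show that they lack a TIR domain. The rule found 0 genes by the terms Relish, immune deficiency, thioester-containing, nimrod, eater, draper, hemolectin and hemese, so the signalling genes were a ligand and receptors only. Other genes of the pathways were therefore taken from lists of their own.

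Depth was 12876941 to 14107417 counted reads in the dsMdCht9 libraries and 15314878 to 15439421 in the dsGFP libraries. The 47 genes took 0.471% to 0.525% of the reads in dsMdCht9 and 0.500% to 0.527% in dsGFP. The 2 libraries numbered 3 stood apart from the rest: on the first principal component, with 49.3% of the variance, dsMdCht9 replicate 3 was at 48.2 and dsGFP replicate 3 at 40.2, against -33.5 to -3.04 in the other 4 libraries. MdCht9 is named by no annotation in the table, so its knockdown was not checked. Markers of fat body, gut, muscle, cuticle, neurons and haemocytes were present in every library, as a whole body should hold. Levels below are CPM, the counts of a library scaled to a common total after TMM scaling between libraries. Transcript lengths were not used, so levels are not compared between genes.

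No gene of the set passed the test, and most PGRP genes had lower means in dsMdCht9. Of the 47 genes, 40 passed the filter on low counts. By edgeR at an adjusted p under 0.05, 0 of these 40 and 0% of all 10644 tested genes were called; DESeq2 and limma-voom also called 0 of the set, with DESeq2 calling 13 genes or 0.0915% of all those it gave an adjusted p. With the replicate number as a block, edgeR again called 0. DESeq2 with that block called 1 of the set, LOC101898359, among 91 genes or 0.902% of all those it gave an adjusted p. At an unadjusted p under 0.05, edgeR gave 3 of 40 genes (7.5%), beside 3.58% of all tested genes: LOC105262068 was higher in dsMdCht9, and LOC101898661 and LOC101898359 were lower.

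Direction was near that of all genes. The log2 fold change was below 0 for 23 of 40 genes (57.5%), beside 50.5% of all tested genes, and the median was -0.07, beside -0.0033 over all genes. Scaled by library size alone, 18 of 40 were below 0, beside 32.3% of all genes, and the median of all genes moved up by 0.12. All 3 dsMdCht9 libraries lay below all 3 dsGFP libraries for 2 of 40 genes (5%; 3.38% of all genes). They lay above for another 2 (5%; 4.83% of all genes). The authors' deposited table marks 3 of the 47 genes (6.38%) as significant, beside 2.66% of all rows. Its mark matched, with 0 exceptions, an unadjusted p under 0.05 together with a change of more than 1.5-fold; LOC105262068 met only the first.

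**Figure D1:**
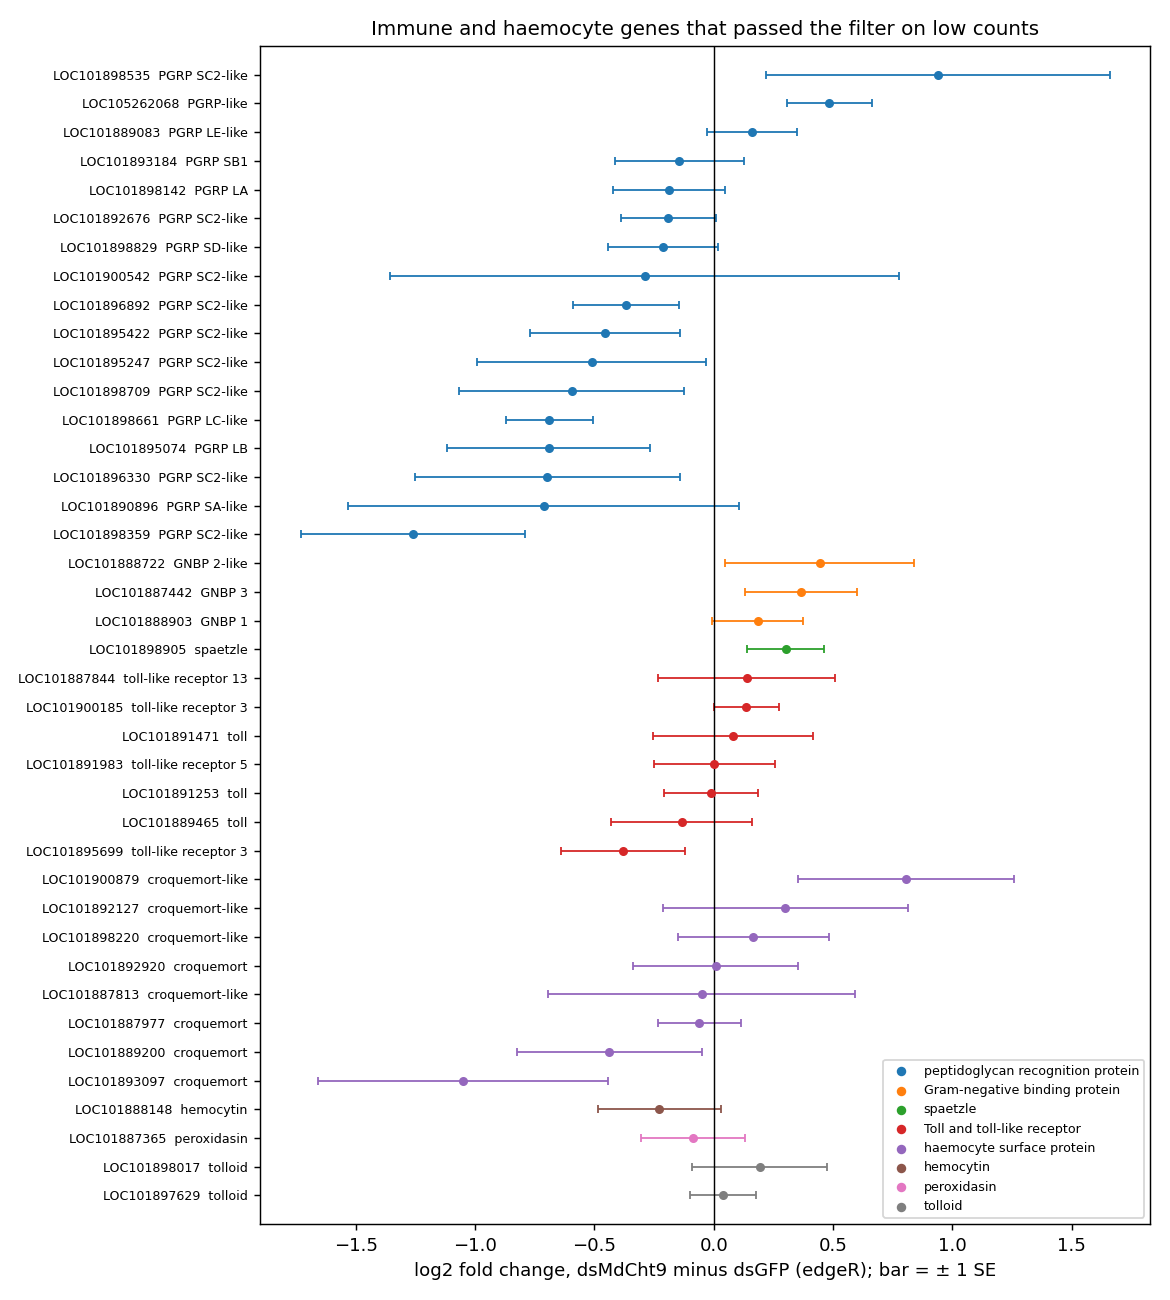
Log2 fold change (dsMdCht9 minus dsGFP, edgeR) of the 40 tested genes, grouped by role and sorted within each role; points are estimates, bars are ± 1 SE and colours mark roles. Of the 17 PGRP genes 14 lie left of 0, all 3 GNBP genes and spaetzle lie right of 0, and the widest bars belong to genes with few reads.

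PGRP genes, the sensors of bacterial cell walls, were mostly lower in dsMdCht9. Of the 20 genes 17 were tested; 14 of these were lower and 3 higher, with a median log2 fold change of -0.37. None passed the threshold, and the adjusted p by edgeR was 0.999 for each of the 17. Summed over all 20 genes, dsMdCht9 replicates 1, 2 and 3 had 2372, 2582 and 3037 CPM, against 3444, 3070 and 2961 CPM in dsGFP. The sums overlapped through dsMdCht9 replicate 3, and averaged 2664 ± 340 in dsMdCht9 and 3158 ± 254 in dsGFP (SD, n = 3 each). In whole larvae, fewer cells of a type and less RNA per cell cannot be told apart. The median was -0.21 without dsMdCht9 replicate 1, with 13 of 18 lower, and -0.22 without dsGFP replicate 3, with 12 of 17 lower. Without both libraries numbered 3 it was -0.37, with 11 of 16 lower.

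**Figure D2:**
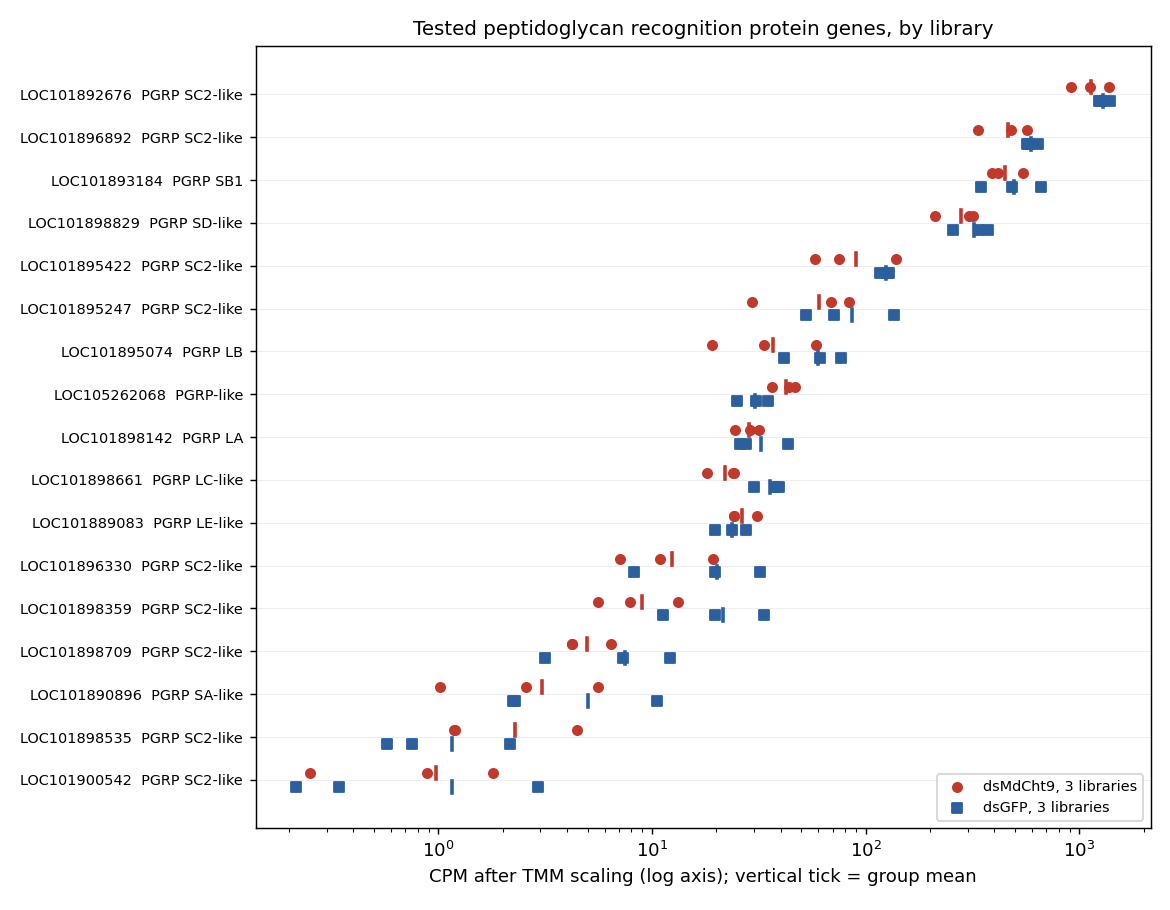
CPM after scaling (log axis) of the 17 tested PGRP genes in each library; red circles are the 3 dsMdCht9 libraries, blue squares the 3 dsGFP libraries, and vertical ticks the group means. The groups do not overlap for LOC101898661 (LC-like, dsMdCht9 lower) and LOC105262068 (PGRP-like, dsMdCht9 higher).

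LOC101898661, described as PGRP-LC-like, had the smallest p of the set before adjustment. In Drosophila PGRP-LC is the membrane receptor that starts Imd signalling. It had 24.1, 18.2 and 23.8 CPM in dsMdCht9 replicates 1, 2 and 3, against 37.5, 39.1 and 30.0 CPM in dsGFP. Every dsMdCht9 library was below every dsGFP library. The means were 22.0 ± 3.35 in dsMdCht9 and 35.5 ± 4.82 in dsGFP (SD, n = 3 each). Its log2 fold change was -0.69 ± 0.18 (SE), with adjusted p = 0.999 by edgeR. Leaving out one library at a time kept it between -0.79 and -0.57, and it was -0.84 without both libraries numbered 3. The authors' deposited table gives a log2 fold change of -0.70 with adjusted p = 0.515. The gene lies on scaffold NW_004765022.1 at 226749 to 244292, plus strand, of an assembly that the table does not name.

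The other genes of the set on that scaffold are LOC101898142 (PGRP-LA) and LOC101898829 (PGRP-SD-like), and the 3 genes span 105.4 kb, at 142912 to 248349. Between LOC101898142 and LOC101898661 lies LOC101897511, at 185975 to 219840. It matches PGRP-LF in UniProt only and so was not in the set. PGRP-SD is a secreted sensor in Drosophila. LOC101898142 had 28.9, 24.4 and 31.6 CPM in dsMdCht9 and 25.7, 27.5 and 43.3 CPM in dsGFP, a log2 fold change of -0.19 ± 0.23. LOC101898829 had 306, 211 and 318 CPM in dsMdCht9 and 255, 338 and 373 CPM in dsGFP, a log2 fold change of -0.21 ± 0.23. Both overlapped between the groups, and both estimates were within 1 SE of 0 on the log2 scale.

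A pair of neighbouring genes with a UniProt match to PGRP-LE had higher means in dsMdCht9. PGRP-LE is the Drosophila sensor that also acts inside cells. The genes lie 8.426 kb from end to end on scaffold NW_004765822.1. LOC105262068 had 43.8, 36.3 and 46.7 CPM in dsMdCht9, against 30.7, 34.9 and 25.0 CPM in dsGFP. All dsMdCht9 libraries were above all dsGFP libraries, with means of 42.3 ± 5.35 in dsMdCht9 and 30.2 ± 4.95 in dsGFP (SD, n = 3 each). The estimate was 0.48 ± 0.18 on the log2 scale, with adjusted p = 0.999 by edgeR, and 0.30 without both libraries numbered 3. LOC101889083 had 24.2, 24.2 and 30.8 CPM in dsMdCht9, against 19.7, 23.7 and 27.5 CPM in dsGFP, a log2 fold change of 0.16 ± 0.19. This gene overlapped between the groups, though it was higher in dsMdCht9 at each replicate number. Summed, the pair had 68.0, 60.5 and 77.5 CPM in dsMdCht9, against 50.4, 58.6 and 52.6 CPM in dsGFP, with no overlap. LOC105262068 makes up more of this sum than LOC101889083, so the lack of overlap is partly built in. Reads that fit either copy are placed in an unknown way.

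The PGRPs named SC2, LB or SB1 belong to types that cut peptidoglycan as amidases in Drosophila. The grouping was made after their values were seen. Of 11 tested genes of these names 10 were lower in dsMdCht9, with a median log2 fold change of -0.46; the median was -0.22 without dsMdCht9 replicate 1, with 9 of 11 lower. Of the other 6 tested PGRPs 4 were lower, with a median of -0.20. Summed over the 10 SC2 genes, among which reads of like copies could be split, dsMdCht9 had 1366, 1834 and 2132 CPM, against 2336, 2051 and 2072 CPM in dsGFP. Only dsMdCht9 replicate 3 reached the range of dsGFP.

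The SC2 gene with the most reads, LOC101892676, had 914, 1120.5 and 1372 CPM in dsMdCht9, against 1388, 1259 and 1239 CPM in dsGFP. The groups overlapped through dsMdCht9 replicate 3, and the log2 fold change was -0.19 ± 0.20. LOC101896892 had 336, 479 and 568 CPM in dsMdCht9, against 638, 567 and 579 CPM in dsGFP. Here dsMdCht9 replicates 1 and 2 were below all dsGFP libraries and replicate 3 lay at the lowest of them, with a log2 fold change of -0.37 ± 0.22. At each replicate number this gene was lower in dsMdCht9. LOC101893184 (PGRP-SB1) had 543, 414 and 389 CPM in dsMdCht9 and 660.5, 483 and 345 CPM in dsGFP, and its groups overlapped throughout.

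LOC101898359, an SC2-like gene, had the lowest log2 fold change among the tested genes. It had 13.3, 5.61 and 7.89 CPM in dsMdCht9, against 19.7, 11.2 and 33.4 CPM in dsGFP. The groups overlapped, since dsMdCht9 replicate 1 was above dsGFP replicate 2, and dsGFP replicate 3 was the highest. At each replicate number the gene was lower in dsMdCht9. Its estimate was -1.26 ± 0.47 on the log2 scale, with adjusted p = 0.999 by edgeR. With the replicate number as a block the adjusted p was 0.0491 by DESeq2 and 0.488 by edgeR. This log2 fold change was -0.78 without dsGFP replicate 3 and -0.69 without both libraries numbered 3. The authors' deposited table gives a log2 fold change of -1.27 with adjusted p = 0.778.

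That gene is one of 4 SC2 genes within 17.66 kb of scaffold NW_004764791.1, at 90328 to 107989. The other 3 took few reads and spread widely. LOC101898709 had 6.45, 4.21 and 4.20 CPM in dsMdCht9 and 7.28, 3.14 and 12.1 CPM in dsGFP (log2 fold change -0.60 ± 0.47). LOC101898535 had 1.19, 4.44 and 1.18 CPM in dsMdCht9 and 0.577, 0.750 and 2.15 CPM in dsGFP. It was the highest estimate of the set at 0.94 ± 0.72, with dsMdCht9 replicate 2 as the highest library, and it was 0.02 without that library and 1.75 without dsGFP replicate 3. LOC101900542 had 0.250, 1.79 and 0.885 CPM in dsMdCht9 and 0.216, 0.341 and 2.91 CPM in dsGFP, the widest ratio of highest to lowest library among the tested genes, at 13.5. Neighbours on this scaffold thus differed in the sign of their estimates, with overlap in every case.

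LOC101895074 (PGRP-LB) shares scaffold NW_004764762.1 with the SC2 genes LOC101895247 and LOC101895422. LOC101895074 had 33.4, 19.0 and 58.5 CPM in dsMdCht9, against 76.3, 61.4 and 41.4 CPM in dsGFP, a log2 fold change of -0.69 ± 0.42. The samples numbered 3 went the other way from the rest: without both, the value was -1.38. LOC101895247 had 29.3, 69.0 and 83.5 CPM in dsMdCht9 and 135, 71.2 and 52.7 CPM in dsGFP. LOC101895422 had 58.2, 138 and 74.8 CPM in dsMdCht9 and 126, 129 and 117 CPM in dsGFP. All 3 genes had lower means in dsMdCht9 and overlapped between the groups, and both SC2 genes were lowest in dsMdCht9 replicate 1.

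PGRP-SA, which starts Toll signalling in Drosophila, was represented by 3 genes on scaffold NW_004765729.1. LOC101890896 had 2.57, 1.01 and 5.60 CPM in dsMdCht9 and 2.23, 10.6 and 2.28 CPM in dsGFP, at -0.71 ± 0.82 on the log2 scale. LOC105262050 had 0, 0 and 17 reads in dsMdCht9 and 6, 7 and 15 reads in dsGFP. LOC105262052 had 0, 0 and 2 reads in dsMdCht9 and 1, 5 and 1 reads in dsGFP. These last genes did not pass the filter and were not tested. LOC101896158, an SC2 gene that also did not pass, had 0, 1 and 5 reads in dsMdCht9, below 8, 8 and 13 reads in dsGFP. It was marked in the authors' deposited table, with a log2 fold change of -2.17. LOC101896330, next to it on scaffold NW_004764591.1, had 7.07, 10.9 and 19.2 CPM in dsMdCht9 and 19.8, 8.25 and 32.1 CPM in dsGFP, with overlap. RefSeq lists LOC101896330 as a pseudogene, and it is counted among the tested PGRP and SC2 genes above.

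All 3 GNBP genes had higher means in dsMdCht9, and none passed the threshold. LOC101887442 (GNBP3), whose Drosophila counterpart binds fungal glucans, had 135, 88.8 and 144 CPM in dsMdCht9, against 76.1, 107 and 102 CPM in dsGFP. Replicates 1 and 3 of dsMdCht9 were above all dsGFP libraries and replicate 2 was not. Its log2 fold change was 0.37 ± 0.24, with adjusted p = 0.999 by edgeR. LOC101888903 (GNBP1), known in Drosophila as a partner of PGRP-SA, had 71.2, 50.8 and 66.5 CPM in dsMdCht9, against 47.2, 54.4 and 64.4 CPM in dsGFP, a log2 fold change of 0.18 ± 0.19. LOC101888722 (GNBP2-like) had 23.5, 22.1 and 53.2 CPM in dsMdCht9, against 17.1, 24.1 and 31.3 CPM in dsGFP, a log2 fold change of 0.44 ± 0.40. Both overlapped; they lie within 5.298 kb on scaffold NW_004765881.1. The median of the 3 was 0.37, and 0.15 without dsMdCht9 replicate 3, when 1 of the 3 was lower.

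Spaetzle, the ligand of Toll (LOC101898905), had 39.8, 44.6 and 32.6 CPM in dsMdCht9, against 33.6, 31.0 and 30.4 CPM in dsGFP. Only dsMdCht9 replicate 3 lay within the dsGFP range, and the others were above it. Each dsMdCht9 library was above the dsGFP library of the same number. The log2 fold change was 0.30 ± 0.16, with adjusted p = 0.999 by edgeR.

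Genes described as Toll or toll-like receptors spread around 0. Of 7 tested genes the estimates ran from -0.38 to 0.14, with a median of 0.0022 that changed sign between settings: it was -0.17 without dsGFP replicate 1 and 0.16 without dsGFP replicate 3. LOC101900185, described as toll-like receptor 3 and with a TIR domain, had 69.6, 60.7 and 69.4 CPM in dsMdCht9, against 62.7, 56.7 and 62.2 CPM in dsGFP (log2 fold change 0.14 ± 0.13). LOC101891253, described as Toll, had 24.3, 22.9 and 24.0 CPM in dsMdCht9 and 18.6, 23.3 and 29.9 CPM in dsGFP (log2 fold change -0.01 ± 0.20). Both overlapped. The first gene was higher in dsMdCht9 at each replicate number, and the dsGFP libraries of the second gene enclosed all dsMdCht9 libraries. The other TIR genes, LOC101889465 and LOC101891471, were at -0.13 ± 0.30 and 0.08 ± 0.34. Among the leucine-rich repeat genes, LOC101887844 had 36.7, 26.5 and 35.4 CPM in dsMdCht9 and 15.7, 28.2 and 45.7 CPM in dsGFP, and it matched nyctalopin in UniProt. Its estimate of 0.14 ± 0.37 ran between -0.17 and 0.58 with one library left out. LOC101895699, with a UniProt match to artichoke, was at -0.38 ± 0.26. LOC101891983, with a UniProt match to trophoblast glycoprotein, was at 0.0022 ± 0.25. Both ends of the range and the median thus came from genes without a UniProt match to Toll. The 4 TIR genes alone ran from -0.13 to 0.14, with a median of 0.03. LOC101890408 and LOC101889901, the latter matched to chaoptin in UniProt, did not pass the filter.

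Croquemort genes encode relatives of the scavenger receptor CD36; the Drosophila protein lets haemocytes engulf dying cells. Several of the 9 matched peste, another member of that family, in UniProt, so not all need be haemocyte genes. Summed, they had 260.3, 296.9 and 290.6 CPM in dsMdCht9, against 346.4, 280.5 and 310.6 CPM in dsGFP, with overlap. LOC101892920 had 138, 196 and 115 CPM in dsMdCht9 and 199, 164 and 84.3 CPM in dsGFP, a log2 fold change of 0.01 ± 0.35. LOC101889200 had 72.1, 46.5 and 106 CPM in dsMdCht9 and 85.2, 69.5 and 149.7 CPM in dsGFP, a log2 fold change of -0.44 ± 0.39. Both genes overlapped between the groups. LOC101889200 was lower in dsMdCht9 at each of the 3 replicate numbers; with these as a block its estimate was -0.44, with an unadjusted p under 0.05 and adjusted p = 0.511 by edgeR. Without the block, leaving out dsMdCht9 replicate 3 gave -0.77 and leaving out dsGFP replicate 3 gave -0.04.

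In 3 of the 9 croquemort genes the groups did not overlap, all with few reads and without a call. Of the 8 tested, 1 was lower throughout in dsMdCht9 and 1 higher, beside 3.38% and 4.83% of all tested genes. LOC101893097 had 4.19, 4.91 and 0.664 CPM in dsMdCht9, against 7.5, 5.52 and 7.27 CPM in dsGFP. Its log2 fold change of -1.05 ± 0.61 was -0.50 without both libraries numbered 3, since dsMdCht9 replicate 3 was the lowest library. LOC101900879 had 10, 10 and 10 reads in dsMdCht9, against 5, 4 and 9 reads in dsGFP, a log2 fold change of 0.81 ± 0.45. LOC109613958 did not pass the filter, with 5, 7 and 5 reads in dsMdCht9, against 14, 9 and 10 reads in dsGFP.

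Hemocytin, the clotting protein that is called hemolectin in Drosophila (LOC101888148), had 844, 1449 and 865 CPM in dsMdCht9, against 1400.1, 1231 and 1069 CPM in dsGFP. Replicates 1 and 3 of dsMdCht9 were below all dsGFP libraries and replicate 2 was above all of them. The means were 1052 ± 343 in dsMdCht9 and 1233 ± 166 in dsGFP (SD, n = 3 each). The log2 fold change was -0.23 ± 0.26, with adjusted p = 0.999 by edgeR; without dsMdCht9 replicate 2 it was -0.53. Peroxidasin (LOC101887365), an enzyme of the extracellular matrix that haemocytes make, had 231, 257 and 293 CPM in dsMdCht9 and 231, 244 and 354 CPM in dsGFP. Its log2 fold change was -0.09 ± 0.22. This turned to 0.016 with scaling by library size alone, where the median of all genes was 0.116. The second peroxidasin gene had at most 4 reads in any library.

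Summed haemocyte markers differed between the dsMdCht9 libraries and lay close together in dsGFP, where single marker genes did not. The 9 marker genes, peroxidasins, hemocytin and phenoloxidases, summed to 1836, 3481 and 2278 CPM in dsMdCht9, against 2907, 2891 and 2793 CPM in dsGFP. The sum was lowest in dsMdCht9 replicate 1 and highest in dsMdCht9 replicate 2, with an SD of 851 in dsMdCht9 and 62 in dsGFP. Hemocytin has the same lowest and highest library but is a large part of this sum, so the likeness is partly built in. In dsGFP, single genes moved in opposite directions within the close sums. Hemocytin had 1400.1, 1231 and 1069 CPM in dsGFP replicates 1, 2 and 3. LOC101895929, a phenoloxidase gene, had 282, 419 and 468 CPM in these libraries. The summed markers of other tissues also ranged widely. The 12 fat body genes had 83180 to 145400 CPM in dsMdCht9 and 113900 to 149200 CPM in dsGFP. The 15 muscle genes had 14000 to 25060 CPM in dsMdCht9 and 16460 to 25060 CPM in dsGFP, and the 70 cuticle genes 18150 to 35930 CPM in dsMdCht9 and 23810 to 45770 CPM in dsGFP. The 116 gut genes had 9727 to 14800 CPM in dsMdCht9 and 12970 to 14180 CPM in dsGFP, and the 15 neuronal genes 124.1 to 143.8 CPM in dsMdCht9 and 131.8 to 162 CPM in dsGFP. Each of these 5 sums was lowest in dsMdCht9 replicate 1, and no marker was at 0 in all libraries. Their part in the values of the immune genes was not tested.

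The 2 tolloid genes were near 0 in their estimates. LOC101897629 had 34.1, 36.6 and 30.9 CPM in dsMdCht9 and 31.1, 33.1 and 34.7 CPM in dsGFP (log2 fold change 0.04 ± 0.14). LOC101898017 had 7.20, 6.0 and 6.93 CPM in dsMdCht9 and 4.61, 4.64 and 8.35 CPM in dsGFP (log2 fold change 0.19 ± 0.28). Both overlapped between the groups.

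Many of the genes varied widely between single libraries. The median ratio of highest to lowest library was 2.03 over the 40 tested genes, beside 1.76 over all tested genes; 19 of the 40 were under 2-fold and 9 were at 4-fold or more. The 9 were 7 PGRP genes and 2 croquemort genes. dsGFP replicate 3 was the highest library for 13 of 40 genes (32.5%, beside 19.4% of all genes), and dsGFP replicate 1 the lowest for 11 (27.5%, beside 18.6%). dsMdCht9 replicate 3 was the lowest for 2 (5%, beside 17.1%).

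**Figure D3:**
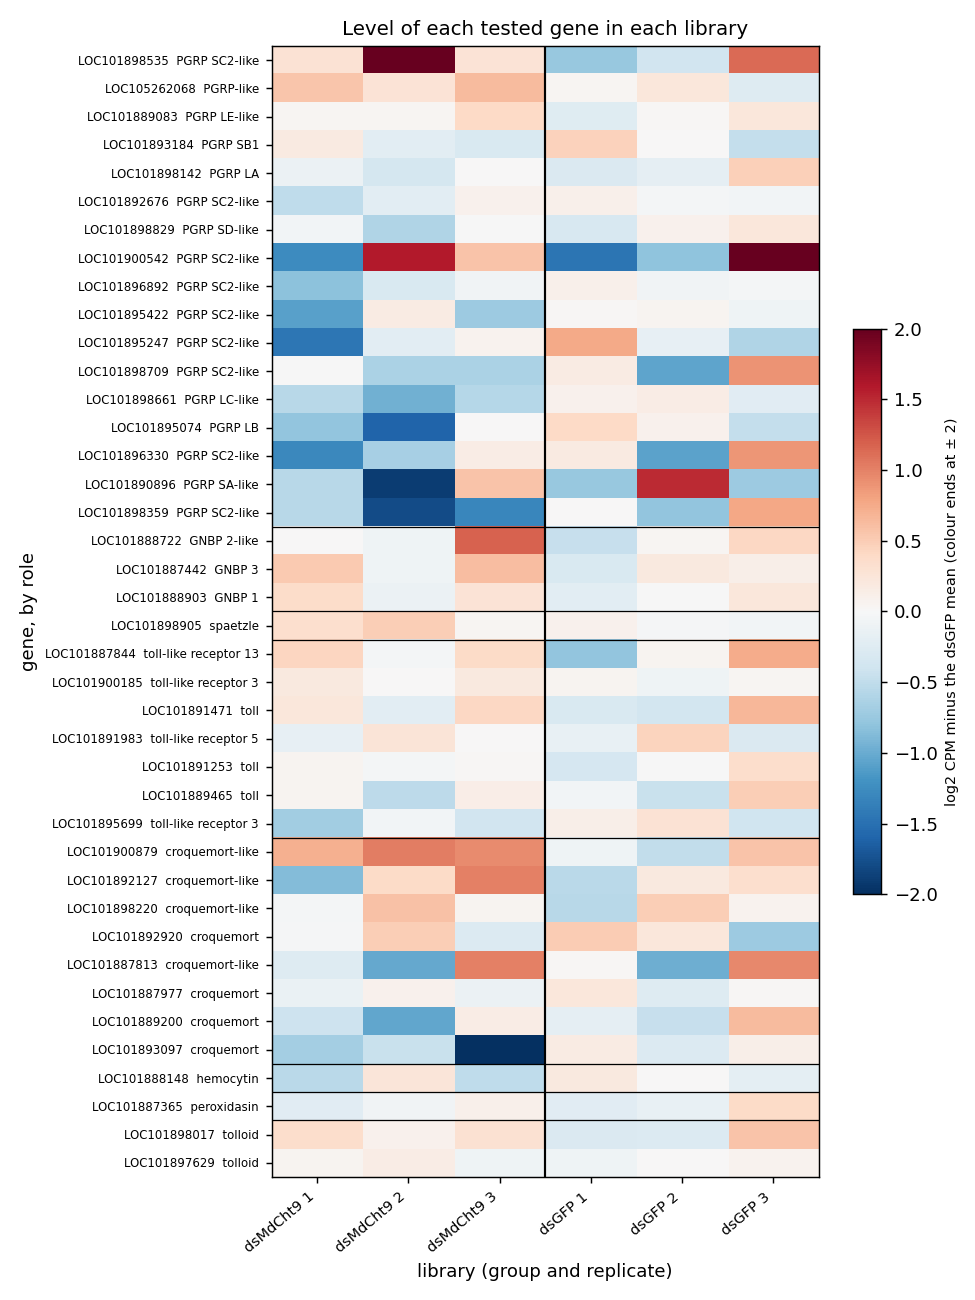
Log2 CPM minus the dsGFP mean for the 40 tested genes (rows, by role) in each of the 6 libraries (columns, dsMdCht9 left of the black line and dsGFP right of it); red is higher, blue lower, and the colour ends at 2 either way. LOC101898661 is blue in all 3 dsMdCht9 libraries, while many other PGRP rows hold strong colours in single libraries of both groups.

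Other genes of the pathways were taken from lists by description, and none of them was called. Antimicrobial peptide genes, the outputs of both pathways, had lower means in 12 of 18 tested genes and higher means in 6, with a median log2 fold change of -0.54; 1 of 18 genes had an unadjusted p under 0.05, beside 3.58% of all tested genes. Without both libraries numbered 3, the median was -0.44 and 6 genes had one, 1 higher and 5 lower, beside 5.54% of all genes, and again none was called. The 1 gene with all libraries, LOC101889801 (sarcotoxin-1D-like, of the cecropin type), was higher: it had 2.13, 2.65 and 1.70 CPM in dsMdCht9, against 1.37, 0.886 and 0.380 CPM in dsGFP, with no overlap (log2 fold change 1.3 ± 0.48). It took few reads. The next smallest p of the list belonged to an attacin gene described as sarcotoxin II-1-like, which was lower (log2 fold change -1.41 ± 0.60). Its groups overlapped, since dsMdCht9 replicate 3 was above dsGFP replicate 3. The authors' deposited table marks both genes as significant. LOC101893852 (sarcotoxin-2A-like, of the attacin type) had 134, 152 and 525 CPM in dsMdCht9 and 365, 579 and 368 CPM in dsGFP, with overlap. dsMdCht9 replicate 2 was the lowest library for 10 of the 18 genes, and without it the median was -0.30. Without dsGFP replicate 2 the median was -0.29.

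Genes inside the cell for Toll, Imd, JAK-STAT and JNK signalling lay close to 0: 12 of 19 were higher and 7 lower, from -0.18 to 0.32, with a median of 0.03. LOC101899398, a ubiquitin-conjugating enzyme whose Drosophila counterpart acts in Imd signalling, had 212, 204 and 228 CPM in dsMdCht9, against 179, 179.6 and 183 CPM in dsGFP. The groups did not overlap, and the log2 fold change was 0.25 ± 0.14. LOC101888716 (Tube, an adaptor below Toll) was at 0.32 ± 0.19, and LOC101889324 (cactus, the inhibitor that holds back Toll's transcription factors) at -0.05 ± 0.15. Of the proteases of the Toll cascade and their clip-domain relatives, 12 of 23 were higher and 11 lower, with a median of 0.01. Easter cleaves spaetzle in the Drosophila embryo. LOC101901591, described as easter but matched to serine protease 7 in UniProt, was at -0.52 ± 0.31, with few reads. LOC101900180, easter-like by description and easter in UniProt, was at -0.08 ± 0.22. None of these 42 tested genes had an unadjusted p under 0.05.

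Of 5 tested phenoloxidase genes, whose enzymes make melanin, 3 were higher and 2 lower, with a median of 0.02; it was -0.32 without dsMdCht9 replicate 2 and 0.21 without both libraries numbered 3. LOC101900449 (phenoloxidase 2) had 8.01, 2.81 and 2.36 CPM in dsMdCht9, against 9.01, 9.82 and 18 CPM in dsGFP. Every dsMdCht9 library was below every dsGFP library, and the log2 fold change was -1.47 ± 0.53 (adjusted p = 0.999 by edgeR). LOC101891047, which took the most reads of the list, had 344, 1060.3 and 546 CPM in dsMdCht9 and 921, 905 and 697 CPM in dsGFP, with overlap. LOC101895929 had 286, 606 and 424 CPM in dsMdCht9 and 282, 419 and 468 CPM in dsGFP, also with overlap. Like hemocytin, LOC101891047 was lowest in dsMdCht9 replicate 1 and highest in dsMdCht9 replicate 2.

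Among 42 tested genes of the list of other haemocyte genes, which by its terms also took in disintegrins and matrix genes of other tissues, 30 had lower means and 12 higher ones, and the median was -0.07. By library size alone 15 of 42 were lower, beside 32.3% of all genes, and the median was 0.04, beside 0.116 over all genes. LOC101900359 (lozenge, a transcription factor of the haemocytes that make phenoloxidase in Drosophila) had 2.13, 2.1 and 4.57 CPM in dsMdCht9, against 5.05, 5.18 and 5.63 CPM in dsGFP. The groups did not overlap, and the log2 fold change was -0.85 ± 0.34 (adjusted p = 0.999 by edgeR). LOC101894989 (tiggrin, a matrix protein) had 1752, 2257 and 2531 CPM in dsMdCht9 and 1886, 1843 and 2368 CPM in dsGFP (log2 fold change 0.10 ± 0.21). LOC101897761 (collagen IV) was at -0.01 ± 0.29.

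**Figure D4:**
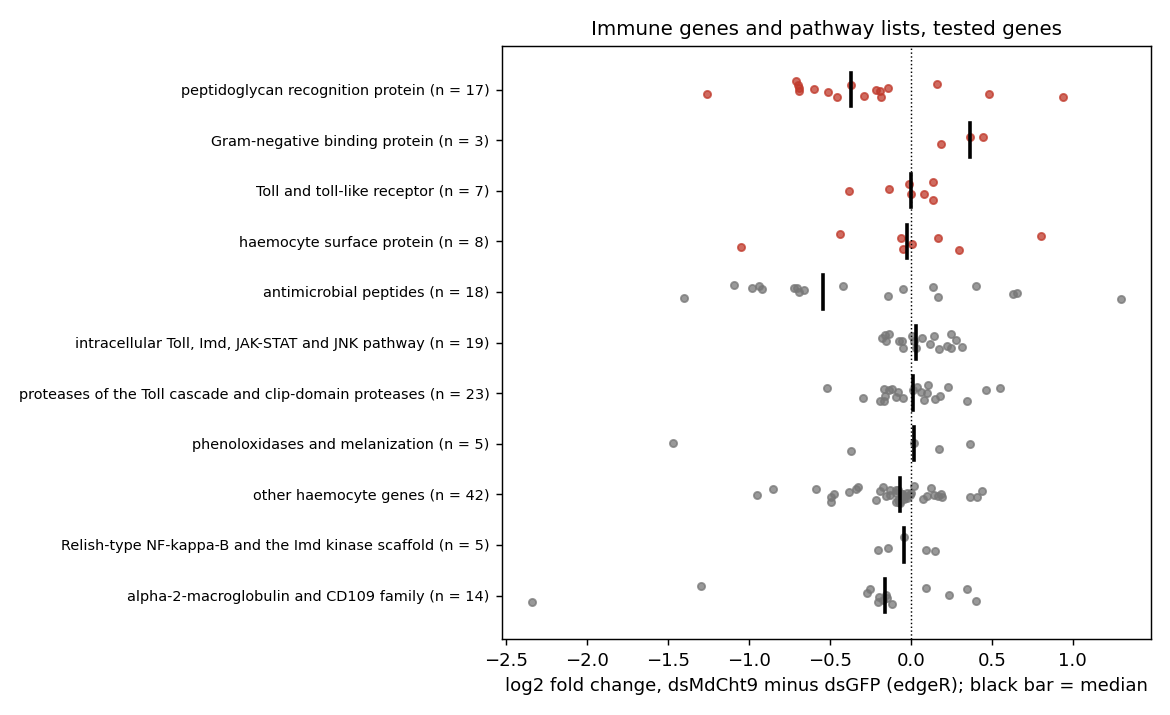
Log2 fold change (dsMdCht9 minus dsGFP, edgeR) of every tested gene, 1 point each; red points are roles of the immune set with 3 or more tested genes, grey points are the other lists, and black bars are medians. Antimicrobial peptides (median -0.54) and PGRPs (median -0.37) lie lowest, GNBPs (median 0.37) highest, and the intracellular pathway genes stay between -0.18 and 0.32.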

How the data were processed

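Per the file headers, the authors deposited raw counts of reads for each gene in 6 libraries, and the authors' log2 fold change, p-value and adjusted p-value for dsMdCht9 against dsGFP. The submitters' processing notes list HTSeq 0.6.0, HISAT2 2.1.0 and StringTie 1.3.2d. What is not given in the sources used here is the genome build, the strand setting and the handling of multi-mapping reads, so near-identical PGRP copies and overlapping genes are uncertain gene by gene. Samples were grouped by title.

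Counts were filtered with filterByExpr, scaled by TMM and tested two-sided in edgeR 4.0.16 by its quasi-likelihood F-test (R 4.3.3, robust, group only), adjusted by Benjamini-Hochberg over all 10644 tested genes with a threshold of 0.05; SE is the log2 fold change over the root of F. The script was tested on simulated data. Alternatives were DESeq2 1.42.0, limma-voom 3.58.1, other scalings and filters, a replicate block and libraries left out. Libraries of a group differed beyond sampling noise (chi-square of 33.6 to 143.5 per degree of freedom).

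Genes and lists were chosen with earlier results of these data known. Named were the 2 genes with most reads in each role, the 5 of smallest p in each direction and those whose groups do not overlap; of each list, genes among the 3 of smallest p and the 2 with most reads. Samples of the same number deviated together from their group means (r = 0.24, 0.395 and 0.652 for numbers 1, 2 and 3, across genes, which are not independent). Of the unmatched pairs, dsMdCht9 2 with dsGFP 1 reached 0.319, above the matched pair numbered 1, dsMdCht9 1 with dsGFP 2 was at 0.0824, and those of a 3 with another number were below 0, so numbers 1 and 2 are less clearly told apart. Deviations cancel out within a group, so the values below 0 follow in part from the match of the numbers 3. Pairing of numbers 1 and 2 is not shown by these values. As every matched r was over a fixed limit of 0.1, the numbers were still taken to pair the samples. This was from the data and not from the labels. The main fit did not use this pairing, nor did its SE, its p-values and the statements of overlap. Pairing entered only in the fits with a replicate block and where values are compared at each replicate number. No share of all genes is given beside such agreement at each number, so it is a description only. RefSeq held 39 of the 47 genes; its assembly was not matched to the table's, and no sequence was used.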

Additional observations from a re-analysis of the deposited data

How the results depend on the processing

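Over all genes, edgeR called 0 and DESeq2 called 13, or 91 with the replicate block. Of the immune genes DESeq2 with that block called 1 (LOC101898359). It gave 8 of 47 an unadjusted p under 0.05, beside 4.69% of all genes. The edgeR fit with the replicate block gave 4 such genes and changed no other call, while its share of all genes at that p was 8.34%. With one library left out the count of such genes ran from 1 (without dsGFP replicate 1 or dsGFP replicate 3) to 5 (without dsMdCht9 replicate 2). These were 1 of 42, 1 of 40 and 5 of 42 tested genes, beside 2.11%, 6.53% and 5.39% of all genes. The median log2 fold change of the set ran from -0.17 (without dsGFP replicate 2) to 0.087 (without dsGFP replicate 3). Of 20 named genes that were tested, 16 kept their sign under all 15 alternatives. The other 4 had main estimates near 0. LOC101887844 ran from -0.17 to 0.58, LOC101892920 from -0.27 to 0.27, LOC101887365 from -0.20 to 0.14 and LOC101897629 from -0.021 to 0.11 with one library left out. LOC101892920 was at -0.0065 with no filter and at -0.10 without both libraries numbered 3, and LOC101887365 was at 0.016 by library size alone and at 0.053 without both libraries numbered 3. The settings without both libraries numbered 3 for lists, and without dsMdCht9 replicate 2 for lists, were chosen after seeing the data. The cause of these changes was not tested. Among tested genes the SE reached 1.07 for LOC101900542, which had 46 reads at most in any library; 7 genes had too few reads to be tested.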

Other observations

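Lists added after the annotation was seen cover genes of the same pathways that the terms missed; none of these genes was called by edgeR. Genes matched by UniProt only numbered 10 tested of 13, with 3 higher and 7 lower in dsMdCht9 and a median log2 fold change of -0.05. They include LOC101889758 (PGRP-LD) at 0.41 ± 0.31, LOC101897511 (PGRP-LF, which holds back Imd signalling in Drosophila) at -0.22 ± 0.17 and LOC101896323 (draper, a receptor for dying cells) at 0.18 ± 0.18. Of 5 genes for NF-kappa-B p110 subunits, the family of Relish, and for the kinase scaffold NEMO, 2 were higher and 3 lower, with a median of -0.04. LOC101893515, a p110 gene, had 222, 210.5 and 255 CPM in dsMdCht9 and 261, 254 and 192 CPM in dsGFP, with overlap.

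Of 14 tested genes of the alpha-2-macroglobulin and CD109 family, the relatives of the thioester-containing proteins that coat microbes, 10 were lower and 4 higher in dsMdCht9, with a median of -0.16. The median was -0.01 without dsGFP replicate 2, when 7 of 14 were lower. By library size alone it was -0.05, beside 0.116 over all genes. LOC101889853 had 578, 550.5 and 627 CPM in dsMdCht9, against 729, 636 and 730.2 CPM in dsGFP. Its groups did not overlap, with a log2 fold change of -0.26 ± 0.16. LOC101893243 had 0.438, 0.156 and 1.47 CPM in dsMdCht9 and 0.433, 1.3 and 8.79 CPM in dsGFP, where replicate 3 was the highest library (log2 fold change -2.34 ± 1.22).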
